A study of Homo sapiens with 10 samples.

Results

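DNA repair and damage signalling genes were followed in MM.1S, a cell line from human multiple myeloma, after knockdown of HDAC3 or DNMT1. The 49 genes were chosen by name, for their roles in homologous recombination, DNA end resection, the Fanconi anaemia pathway, mismatch repair, base excision, end joining and damage signalling. Earlier results of these data were known when they were chosen, so their counts against all genes are descriptions and no independent test. Each gene was read by 1 array probe set, the one with the highest mean over the 10 arrays among those that the platform annotation assigns to that gene alone. Such a probe set existed for 44 of the 49 genes, out of 19775 genes measured in all. The RNA of BRCA2, RBBP8, FANCA, FANCD2 and PMS2 was not analysed here.

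The 10 arrays formed 5 groups of 2. All cells were infected with lentivirus carrying a short hairpin RNA and RNA was taken at 48 h. The control hairpin targets luciferase (shLuc). A pair of hairpins targets HDAC3, a histone deacetylase of co-repressor complexes (shHDAC3#1 and shHDAC3#2), and another pair targets DNMT1, the enzyme that copies DNA methylation onto newly made DNA strands (shDNMT1#1 and shDNMT1#2). The labels name shLuc as control for the HDAC3 hairpins, and the sources used here do not say whether the DNMT1 arrays were run alongside it. All 4 hairpin groups were set against the same 2 shLuc arrays, so their changes are not independent of each other. Nothing in the labels says that replicates were separate cultures. The p-values therefore measure only how far these arrays spread, and that spread may be technical.

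Cells repair broken DNA either by copying an intact sister strand (homologous recombination, run by BRCA1, BARD1 and their partners) or by rejoining ends directly (end joining, run by the Ku proteins and DNA-PK). The Fanconi anaemia proteins clear links between DNA strands, mismatch repair removes copying errors, and base excision repair removes damaged single bases. The kinases ATM and ATR sense damage and halted replication, and ubiquitin ligases such as RNF8 and RNF168 mark chromatin around a break. Many recombination and checkpoint genes are most active in cells that copy their DNA, and some are known targets of E2F transcription factors.

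E2F-type letters were therefore looked for in the promoters of these genes, with windows from 250 bases before to 50 bases after the start, from RefSeq on GRCh38.p14. The 8-letter strings TTTGGCGC, TTTCCCGC, TTTGCCGC and TTTCGCGC were searched on both strands. At least 1 match lay in 10 of the 43 listed genes with a window (23.3%), and in 3.99% of all 27305 genes with a window. Of the listed genes, 6 had none of these windows. Matches lay in 4 of 11 measured genes that were lower with all 4 hairpins (36.4%) and in 3 of the other 27 measured genes (11.1%). The stretches of 30 bases around the match are shown for the 7 measured genes that had one, in the direction of the gene, with the matching letters in capitals (here GCGGGAAA, GCGGCAAA, GCGCCAAA and GCGCGAAA are matches on the opposite strand).
EXO1, chr1:241848197-241848226, plus strand: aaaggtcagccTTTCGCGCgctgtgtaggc
RMI1, chr9:83980762-83980791, plus strand: ggcgcgagcgcGCGGCAAAtcgggcgggaa
MSH6, chr2:47783137-47783166, plus strand: ctccccccagaTTTCCCGCcagcaggagcc
TOPBP1, chr3:133661930-133661959, minus strand: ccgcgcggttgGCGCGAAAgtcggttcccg
UNG, chr12:109098098-109098127, plus strand: gagggaggtttTTTGCCGCgaaaagaccac
XRCC6, chr22:41621315-41621344, plus strand: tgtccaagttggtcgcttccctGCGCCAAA
XRCC2, chr7:152676102-152676131, minus strand: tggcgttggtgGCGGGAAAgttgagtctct

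The first 4 of these stretches belong to genes that were lower with all 4 hairpins, UNG was lower with 3, XRCC6 with 2 and XRCC2 with none. A match of letters is a description and shows no binding. The CCAAT box, searched on both strands as CCAAT, lay in 58.1% of the listed genes and 39.7% of all genes with a window. The cell cycle homology strings TTTGAA and TTCGAA, likewise on both strands, lay in 16.3% and 19.5%. Between measured genes lower with all 4 hairpins and the other measured genes, these strings lay in 54.5% and 63% (CCAAT) and in 9.09% and 22.2% (cell cycle homology), with the smaller share in the lower genes.

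The targets were lower with their own hairpins. HDAC3 was at 46.9% and 41.6% of its shLuc signal with shHDAC3#1 and shHDAC3#2, and DNMT1 at 17.3% and 21.1% with shDNMT1#1 and shDNMT1#2. DNMT1 was also lower with the HDAC3 hairpins, at 43.5% and 63.8% of control (adjusted p = 2.2e-07 and 0.0007), and HDAC3 with shDNMT1#2, at 65.8% (0.019). HDAC3 itself read 7.26 and 6.61 in the 2 shLuc arrays, a wide gap for replicates. Replicate arrays correlated with Pearson's r from 0.9937 to 0.9963 across genes. The plasma cell genes SDC1, TNFRSF17 and IRF4 were high in shLuc, with mean log2 signals of 9.56, 10.64 and 9.47, and the B cell gene MS4A1 read 3.0. As lists, 8 plasma cell genes had a mean level of 9.43 in shLuc and 3 measured earlier B cell genes 6.14. MS4A1 thus lay far below the mean of its list. ACTB, whose 3' minus 5' signal moves with RNA quality, gave a difference of 0.98 and 1.02 in the shHDAC3#1 arrays and 0.63 to 0.81 in the others. The SD of an array's log2 values was 1.93 and 1.94 in shLuc and 1.84 to 1.91 in the knockdown arrays.

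Repair genes were lower far more often than higher with each hairpin. Values are log2 signals, a change is the mean log2 signal of a hairpin group minus that of shLuc, errors are limma's standard errors (SE, n = 2 against 2), and a gene was called at a limma adjusted p under 0.05 over all 19775 genes. With shHDAC3#1, 20 of 44 members were called lower and 0 higher, where 24.4% of all genes were called, 16.6% lower and 7.83% higher. With shHDAC3#2 the members counted 17 lower and 0 higher, against 10.9% of all genes called, 9.54% lower and 1.31% higher. For shDNMT1#1 they counted 13 lower and 1 higher, against 8.15% of all genes called, 6.81% lower and 1.34% higher. For shDNMT1#2 they counted 18 lower and 3 higher, against 26.8% called, 15.2% lower and 11.6% higher. The lower share of members was thus 45.5%, 38.6%, 29.5% and 40.9%, above the share over all genes in every comparison. This contrast describes a list chosen with earlier results of these data known. At an unadjusted limma p under 0.05, 5 members were higher with shHDAC3#1 and 2 with shHDAC3#2. Shares of all genes at an unadjusted p are not given here, so such member counts, here and below, have no background.

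**Figure D1:**
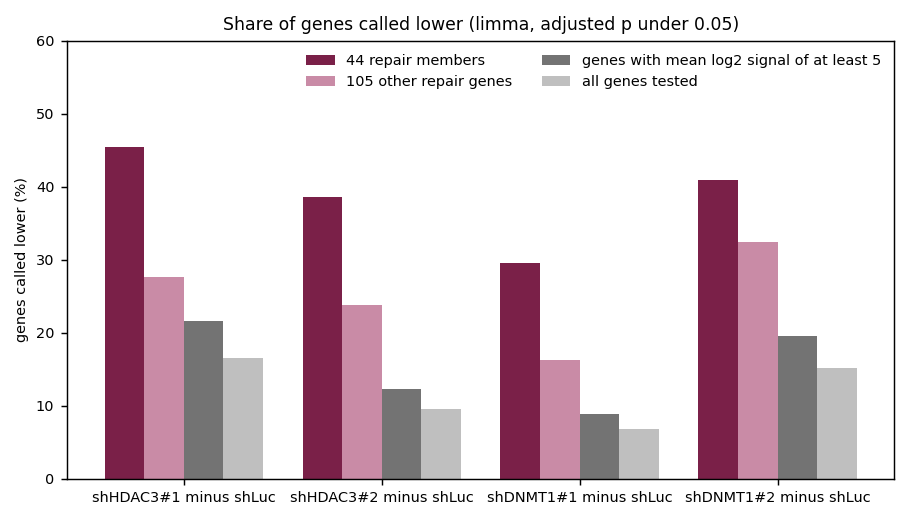
Percent of genes called lower than shLuc with each hairpin (limma, adjusted p under 0.05), as bars for the 44 repair genes, 105 other repair genes, genes with a mean log2 signal of at least 5 and all 19775 genes. The 44 repair genes reach 29.5% to 45.5%, against 6.81% to 16.6% of all genes.

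The median change of the members was -0.24, -0.21, -0.16 and -0.24 with shHDAC3#1, shHDAC3#2, shDNMT1#1 and shDNMT1#2. Over all genes it was 0.06, 0.05, 0.05 and 0.08. Decreases of dim genes can be understated on this scale, so the share was also taken among genes with a mean of at least 5, an alternative chosen after seeing the data. There it was 21.6%, 12.3%, 8.82% and 19.6% lower. Both arrays of a group lay below both shLuc arrays for 23, 25, 24 and 23 members (52.3%, 56.8%, 54.5% and 52.3%), against 28%, 21.9%, 19.8% and 25.7% of all genes (called by limma in either direction: 24.4%, 10.9%, 8.15% and 26.8%). Scaling moved the split of calls over all genes. The lower share of called genes was 68%, 87.9%, 83.6% and 56.7% as deposited, 49.6%, 72%, 74.4% and 46.5% after a further quantile normalization, and 80.7%, 90.4%, 90.3% and 76.4% with arrays centred on their medians. The members then counted 17 lower and 2 higher, 16 and 1, 13 and 1, and 16 and 4 after quantile normalization, and 20 and 0, 17 and 0, 15 and 0, and 20 and 2 with centring.

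A set of 12 members was lower with all 4 hairpins, which is 27.3% of the measured members. The same held for 628 of all genes (3.18%). The 12 were BARD1, BRIP1, RAD51AP1, EXO1, BLM, RMI1, FANCI, FANCL, MSH6, CHEK1, TOPBP1 and RNF168. UNG, PRKDC and XRCC5 were lower with 3 hairpins, 2 members with 2 and 7 with 1. Only 3 members were called higher with any hairpin, namely RAD51C, FANCB and TP53BP1, each with a DNMT1 hairpin. No hairpin gave a call for 17 members (38.6%), against 59% of all genes.

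**Figure D2:**
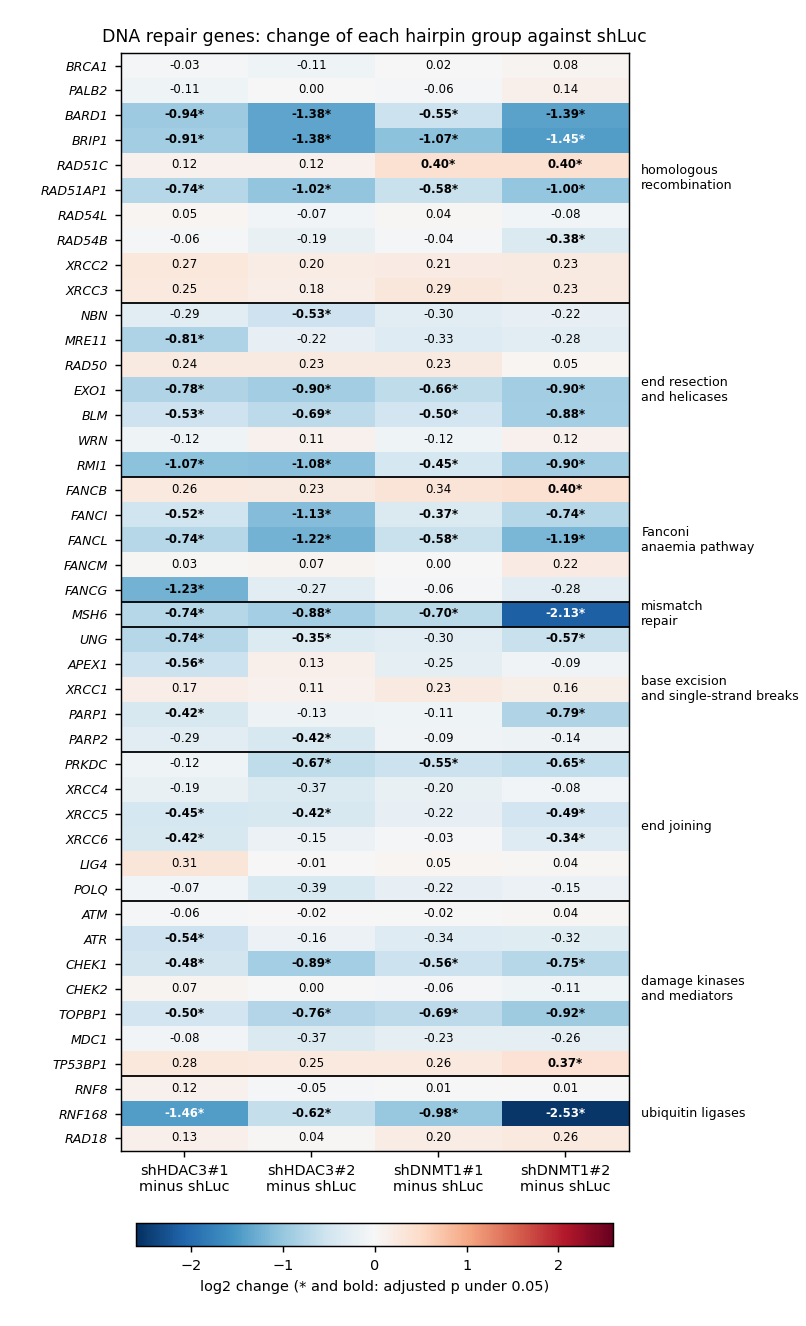
Log2 change against shLuc of each of the 44 repair genes (lines of the map, ordered by role) with each hairpin (columns), each the mean of 2 arrays minus the mean of 2 shLuc arrays, with called changes marked. BRIP1, BARD1, RMI1, EXO1, MSH6 and RNF168 are lower in all 4 columns, while BRCA1, RAD54L, ATM and RNF8 are near 0 in all of them.

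BARD1, BRIP1 and RAD51AP1 were the homologous recombination genes that fell with every hairpin. Of 10 measured, 3 were lower with shHDAC3#1, shHDAC3#2 and shDNMT1#1, and 4 with shDNMT1#2, where 16.6%, 9.54%, 6.81% and 15.2% of all genes were lower with shHDAC3#1, shHDAC3#2, shDNMT1#1 and shDNMT1#2. BARD1, the partner of BRCA1 in a ubiquitin ligase, read 8.14 and 7.91 in shLuc, 7.04 and 7.13 with shHDAC3#1, 6.54 and 6.75 with shHDAC3#2, 7.54 and 7.41 with shDNMT1#1, and 6.58 and 6.69 with shDNMT1#2. Every knockdown array lay below both shLuc arrays. BARD1 changed by -0.94 (adjusted p = 2.4e-06), -1.38 (2.6e-08), -0.55 (0.0028) and -1.39 ± 0.11 (9.3e-09), to between 38.1% and 68.3% of control.

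BRIP1, a helicase that binds BRCA1, read 6.17 and 6.09 in shLuc, 5.07 and 5.37 with shHDAC3#1, 4.52 and 4.98 with shHDAC3#2, 5.22 and 4.89 with shDNMT1#1, and 4.83 and 4.53 with shDNMT1#2. The groups again did not overlap with shLuc, and BRIP1 changed by -0.91, -1.38, -1.07 and -1.45 ± 0.16 (largest limma adjusted p = 0.0002). RAD51AP1, which promotes strand pairing, read 7.50 and 7.46 in shLuc, 6.74 and 6.75 with shHDAC3#1, 6.40 and 6.52 with shHDAC3#2, 7.08 and 6.73 with shDNMT1#1, and 6.5 and 6.46 with shDNMT1#2. Every knockdown array was below the control, and RAD51AP1 changed by -0.74, -1.02, -0.58 and -1.0 ± 0.12 (largest adjusted p = 0.0024).

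BRCA1 itself did not pass the test, with changes of -0.03, -0.11, 0.02 and 0.08 on the probe set chosen. That probe set read 6.39 and 6.53 in shLuc and 6.33 to 6.56 in the knockdown arrays. A second BRCA1 probe set with a mean of 6.14 gave -0.34, -0.51, -0.29 and -0.55, and was called lower with shHDAC3#2 and shDNMT1#2. RAD51C, a recombination gene, also differed between its probe sets. The chosen one read 7.03 and 7.17 in shLuc, 7.22 to 7.23 with the HDAC3 hairpins, 7.66 and 7.34 with shDNMT1#1, and 7.56 and 7.43 with shDNMT1#2, and rose by 0.40 with both DNMT1 hairpins (adjusted p = 0.029 and 0.013). The other, with a mean of 6.71, changed by -0.68, -0.54, -0.19 and -0.37 and was called lower with shHDAC3#1, shHDAC3#2 and shDNMT1#2, so the direction of RAD51C depends on the probe set. With arrays centred on their medians, its rise with shDNMT1#1 was 0.36, adjusted p = 0.052.

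RAD54L, a motor protein of strand exchange, moved least in this group. It read 6.05 and 6.17 in shLuc and 5.98 to 6.18 in the knockdown arrays, with changes from -0.08 to 0.05. RAD54B, a relative of RAD54L, was called lower with shDNMT1#2 (-0.38, adjusted p = 0.021), and was at -0.06, -0.19 and -0.04 with the other hairpins. PALB2, which links BRCA1 to BRCA2, and the recombination genes XRCC2 and XRCC3 passed the test with no hairpin, with changes between -0.11 and 0.29.

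Of 7 genes of end resection and its helicases, 4 were lower with each HDAC3 hairpin and 3 with each DNMT1 hairpin, against 16.6%, 9.54%, 6.81% and 15.2% of all genes. RMI1, a subunit of the BLM complex that dissolves joined DNA strands, read 7.35 and 7.22 in shLuc, 6.17 and 6.27 with shHDAC3#1, 6.10 and 6.31 with shHDAC3#2, 6.98 and 6.70 with shDNMT1#1, and 6.39 and 6.39 with shDNMT1#2. Its changes were -1.07, -1.08, -0.45 and -0.90 ± 0.12, with limma adjusted p of 8.6e-07, 1.3e-06, 0.019 and 7.2e-06, and shDNMT1#1 lay closest to the control.

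EXO1, a nuclease of end resection and mismatch repair, read 7.08 and 6.92 in shLuc, 6.26 and 6.19 with shHDAC3#1, 6.0 and 6.2 with shHDAC3#2, 6.48 and 6.22 with shDNMT1#1, and 6.14 and 6.07 with shDNMT1#2. The changes were -0.78, -0.90, -0.66 and -0.90 ± 0.12, and no knockdown array reached the lower shLuc array. BLM, the helicase mutated in Bloom syndrome, read 7.40 and 6.87 in shLuc, 6.54 and 6.67 with shHDAC3#1, 6.51 and 6.37 with shHDAC3#2, 6.82 and 6.44 with shDNMT1#1, and 6.24 and 6.27 with shDNMT1#2. The 2 shLuc arrays of BLM lie apart, and its changes of -0.53, -0.69, -0.50 and -0.88 ± 0.15 depend on them. Without shLuc replicate 1, BLM was at -0.27 with shHDAC3#1, -0.43 with shHDAC3#2 and -0.24 with shDNMT1#1, with limma adjusted p of 0.34, 0.16 and 0.7.

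In the MRE11-RAD50-NBN complex, which binds broken ends first, the subunits had different calls. MRE11 read 6.92 and 6.80 in shLuc, 6.04 and 6.06 with shHDAC3#1 and 6.44 to 6.73 with the other hairpins. It changed by -0.81 ± 0.11 with shHDAC3#1 (adjusted p = 1.6e-05), the group with the raised ACTB 3' to 5' difference, whose part in it was not tested, and was at -0.22, -0.33 and -0.28 otherwise. A second MRE11 probe set, with a mean of 6.41, gave 0.22, 0.24, 0.11 and 0.33, none of them called, so the decrease rests on 1 probe set. NBN was lower with shHDAC3#2 (-0.53, adjusted p = 0.0046) and at -0.29, -0.30 and -0.22 with the others. RAD50 was at 0.24, 0.23, 0.23 and 0.05, and its other probe set with a mean of 6.36 was called lower with shHDAC3#1 (-0.52). WRN, the Werner syndrome helicase, changed least here, with 5.78 and 5.79 in shLuc, 5.56 to 5.93 in the knockdown arrays and no call.

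**Figure D3:**
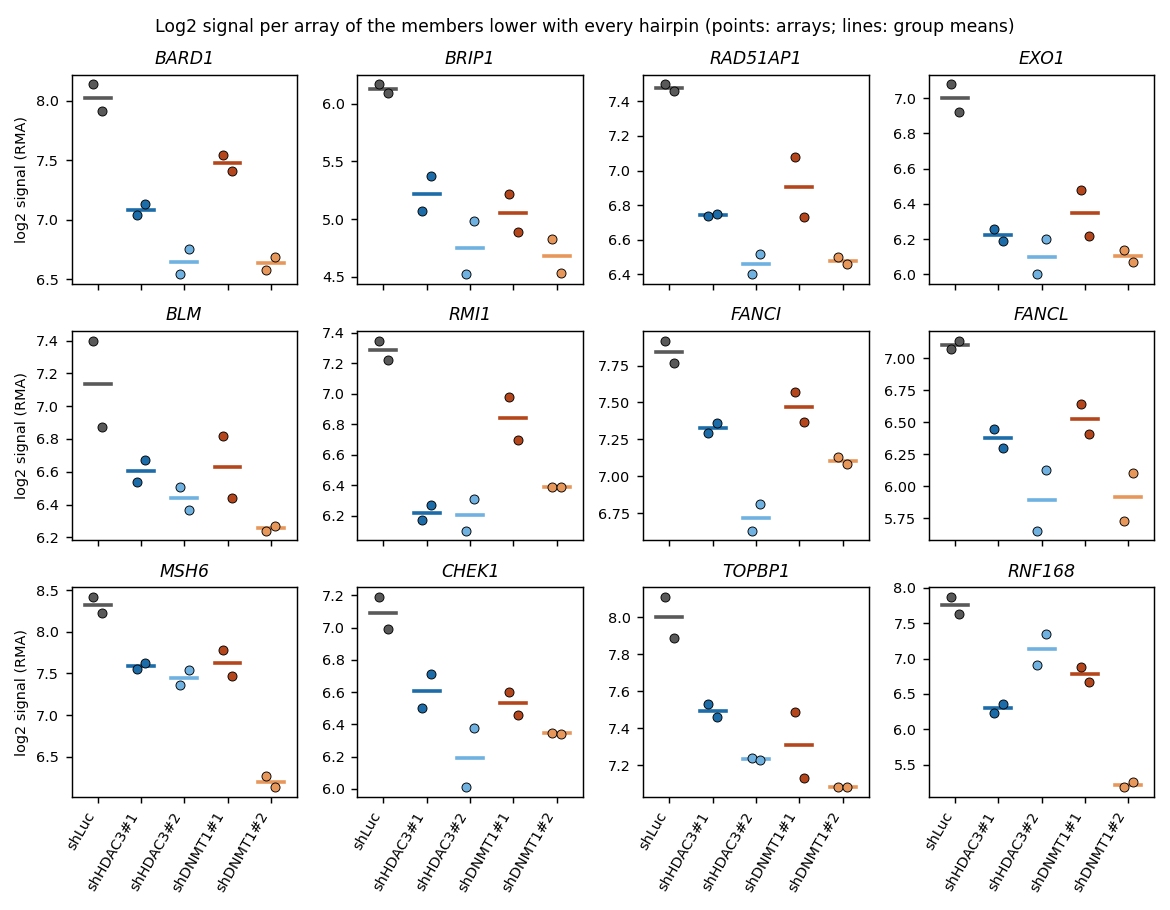
Log2 signal of the 12 repair genes lower with all 4 hairpins in each of the 10 arrays, by group, with points for arrays, lines for group means and a y axis that differs between genes. RNF168 reads 7.87 and 7.63 in shLuc and 5.18 and 5.25 with shDNMT1#2, and both arrays of all 4 knockdown groups lie below shLuc for BARD1, BRIP1, RMI1 and MSH6.

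Within the Fanconi anaemia pathway, 3 of 5 measured genes were lower with shHDAC3#1 and 2 with each of the other hairpins, against 16.6%, 9.54%, 6.81% and 15.2% of all genes. FANCL, the ubiquitin ligase subunit of the core complex, read 7.07 and 7.14 in shLuc, 6.45 and 6.30 with shHDAC3#1, 5.65 and 6.13 with shHDAC3#2, 6.64 and 6.41 with shDNMT1#1, and 5.73 and 6.10 with shDNMT1#2. It changed by -0.74, -1.22, -0.58 and -1.19 ± 0.15, a deeper decrease with the second hairpin of each target. FANCI, which the ligase modifies together with FANCD2, read 7.92 and 7.77 in shLuc, 7.29 and 7.36 with shHDAC3#1, 6.63 and 6.81 with shHDAC3#2, 7.57 and 7.37 with shDNMT1#1, and 7.13 and 7.08 with shDNMT1#2. It fell with every hairpin, at -0.52, -1.13, -0.37 and -0.74 ± 0.11 (adjusted p = 0.0012, 2.3e-07, 0.036 and 2.5e-05).

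FANCG, another core complex subunit, was called with 1 hairpin. It read 5.97 and 5.98 in shLuc, 4.73 and 4.77 with shHDAC3#1, 5.59 and 5.83 with shHDAC3#2, 5.89 and 5.95 with shDNMT1#1, and 5.49 and 5.91 with shDNMT1#2. The shHDAC3#1 arrays stood below all others, at -1.23 ± 0.14 (adjusted p = 8e-07), and the other hairpins gave -0.27, -0.06 and -0.28 with no call. The shHDAC3#1 arrays are also those with the raised ACTB difference, and its part was not tested. FANCB, of the same core complex, was called higher with shDNMT1#2 (0.40, adjusted p = 0.033). With the arrays centred on their medians it was at 0.33, adjusted p = 0.085. FANCM, the DNA translocase that anchors the complex, moved least, with 5.26 and 5.30 in shLuc and 5.21 to 5.54 in the knockdown arrays.

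MSH6, which recognises mismatched bases, was the only mismatch repair member measured, and fell with all 4 hairpins. It read 8.42 and 8.23 in shLuc, 7.55 and 7.63 with shHDAC3#1, 7.36 and 7.54 with shHDAC3#2, 7.78 and 7.47 with shDNMT1#1, and 6.27 and 6.13 with shDNMT1#2. The shDNMT1#2 arrays stood far below the rest. MSH6 changed by -0.74 (adjusted p = 7.4e-05), -0.88 (1.6e-05), -0.70 (0.00038) and -2.13 ± 0.12 (3.5e-11), and was at 22.9% of control with shDNMT1#2. A second MSH6 probe set with a mean of 6.45 gave -0.70, -0.73, -0.48 and -1.48, all called lower, and another with a mean of 5.66 stayed between -0.09 and 0.09.

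Of 5 base excision and single-strand break genes, 3, 2, 0 and 2 were lower with shHDAC3#1, shHDAC3#2, shDNMT1#1 and shDNMT1#2, against 16.6%, 9.54%, 6.81% and 15.2% of all genes. At an unadjusted limma p under 0.05, with no share of all genes given, 2 were lower and 1 higher with shDNMT1#1. UNG, which cuts uracil out of DNA, read 8.95 and 8.99 in shLuc, 8.31 and 8.15 with shHDAC3#1, 8.59 and 8.64 with shHDAC3#2, 8.80 and 8.54 with shDNMT1#1, and 8.4 and 8.41 with shDNMT1#2. All groups lay below shLuc, at -0.74, -0.35, -0.30 and -0.57 ± 0.10, and shDNMT1#1 did not pass the test (adjusted p = 0.073).

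PARP1, which marks DNA breaks with ADP-ribose chains, read 9.94 and 9.95 in shLuc, 9.48 and 9.57 with shHDAC3#1, 9.76 and 9.87 with shHDAC3#2, 9.86 and 9.81 with shDNMT1#1, and 9.23 and 9.08 with shDNMT1#2. It changed by -0.42 with shHDAC3#1 (adjusted p = 0.0013) and by -0.79 with shDNMT1#2 (8.4e-07), and was at -0.13 and -0.11 with the other hairpins. APEX1, the nuclease that cuts at sites without a base, read 9.50 and 9.36 in shLuc, 8.85 and 8.89 with shHDAC3#1, 9.44 and 9.68 with shHDAC3#2, 9.31 and 9.06 with shDNMT1#1, and 9.38 and 9.29 with shDNMT1#2. Only shHDAC3#1 gave a call (-0.56, adjusted p = 0.00034), and the part of the ACTB difference in it was not tested. PARP2 was lower with shHDAC3#2 (-0.42, adjusted p = 0.037). Its other probe sets, with means of 6.37 and 5.79, were at -0.31 and -0.28 there with no call. The first of these was called lower with shHDAC3#1 (-0.35). XRCC1, the scaffold of single-strand break repair, was the least changed, with 7.17 and 7.47 in shLuc and 7.42 to 7.62 in the knockdown arrays.

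Scaling bears on the genes with high signal. A further quantile normalization of the deposited values left PARP1 at -0.12 (adjusted p = 0.17), XRCC5 at -0.10 (0.28) and XRCC6 at -0.05 (0.61) with shHDAC3#1. Under it UNG was at -0.16 (0.31) with shHDAC3#2, XRCC5 at -0.13 (0.16) and XRCC6 at 0.04 with shDNMT1#2. APEX1 became higher under it, by 0.33 with shHDAC3#2 and by 0.28 with shDNMT1#2 (limma adjusted p = 0.0034 and 0.006).

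Of 6 end joining genes, 2, 2, 1 and 3 were lower with shHDAC3#1, shHDAC3#2, shDNMT1#1 and shDNMT1#2, against 16.6%, 9.54%, 6.81% and 15.2% of all genes. PRKDC, the catalytic subunit of DNA-PK, read 8.24 and 7.86 in shLuc, 7.66 and 8.19 with shHDAC3#1, 7.37 and 7.39 with shHDAC3#2, 7.58 and 7.42 with shDNMT1#1, and 7.32 and 7.48 with shDNMT1#2. The shHDAC3#1 arrays overlapped with shLuc and gave -0.12, and the other hairpins gave called changes of -0.67, -0.55 and -0.65 (adjusted p = 0.0025, 0.016 and 0.0019). A second PRKDC probe set with a mean of 6.96 gave 0.14, -0.26, -0.29 and -0.11, none of them called, so these decreases rest on 1 probe set.

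XRCC5, the larger Ku subunit, read 9.73 and 9.74 in shLuc, 9.28 and 9.31 with shHDAC3#1, 9.27 and 9.36 with shHDAC3#2, 9.55 and 9.49 with shDNMT1#1, and 9.33 and 9.17 with shDNMT1#2. It changed by -0.45, -0.42, -0.22 and -0.49, and with shDNMT1#1 it did not pass (adjusted p = 0.14). A second XRCC5 probe set with a mean of 8.51 gave -0.16, 0.02, -0.46 and -0.12 and was called lower with shDNMT1#1, so the calls of the 2 probe sets differ in each of the 4 comparisons. XRCC6, the smaller Ku subunit, read 9.55 and 9.59 in shLuc, 9.14 and 9.16 with shHDAC3#1, 9.31 and 9.53 with shHDAC3#2, 9.61 and 9.47 with shDNMT1#1, and 9.28 and 9.18 with shDNMT1#2. It was lower with shHDAC3#1 (-0.42, adjusted p = 0.0025) and shDNMT1#2 (-0.34, adjusted p = 0.011). LIG4, the ligase of end joining, moved least, at 5.71 and 5.72 in shLuc and 5.68 to 6.23 elsewhere, and XRCC4, its partner, and POLQ, a polymerase of the alternative route, passed with no hairpin.

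Among damage kinases and mediators, 3 of 7 were lower with shHDAC3#1 and 2 with each other hairpin, against 16.6%, 9.54%, 6.81% and 15.2% of all genes. TOPBP1, which activates ATR, read 8.11 and 7.89 in shLuc, 7.53 and 7.46 with shHDAC3#1, 7.24 and 7.23 with shHDAC3#2, 7.49 and 7.13 with shDNMT1#1, and 7.08 and 7.08 with shDNMT1#2. Its changes were -0.50, -0.76, -0.69 and -0.92 ± 0.12 (adjusted p = 0.0031, 8.2e-05, 0.00043 and 4.3e-06), with every knockdown array below both shLuc arrays. CHEK1, the checkpoint kinase that ATR switches on, read 7.19 and 6.99 in shLuc, 6.5 and 6.71 with shHDAC3#1, 6.01 and 6.38 with shHDAC3#2, 6.60 and 6.46 with shDNMT1#1, and 6.35 and 6.34 with shDNMT1#2.

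CHEK1 changed by -0.48 ± 0.13 (adjusted p = 0.009), -0.89 (4.1e-05), -0.56 (0.0073) and -0.75 (0.00017), with no overlap with shLuc. A second CHEK1 probe set, with a mean of 6.15, fell further, at -0.99, -1.09, -1.01 and -1.23, all called. One with a mean of 5.54 gave -0.61, -0.77, -0.41 and -0.99, called lower with all but shDNMT1#1. Another with a mean of 6.0 gave 0.14, -0.09, -0.06 and 0.10 with no call, and so differs from the other CHEK1 probe sets.

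ATR itself read 7.37 and 7.27 in shLuc, 6.73 and 6.83 with shHDAC3#1, 7.02 and 7.30 with shHDAC3#2, 7.21 and 6.76 with shDNMT1#1, and 6.98 and 7.02 with shDNMT1#2. It was lower with shHDAC3#1 (-0.54, adjusted p = 0.0042) and at -0.16, -0.34 and -0.32 with no call otherwise. The part of the raised ACTB difference of shHDAC3#1 in this decrease was not tested. A second ATR probe set, with a mean of 6.51, was at -0.38 with shHDAC3#1 and called with no hairpin. ATM, the kinase that answers double-strand breaks, stayed between 5.56 and 5.83 in the knockdown arrays against 5.91 and 5.6 in shLuc, with changes from -0.06 to 0.04. CHEK2, the kinase below ATM, and MDC1, the adaptor that binds marked chromatin, passed with no hairpin. TP53BP1, which favours end joining over resection, was higher with shDNMT1#2 (0.37, adjusted p = 0.016), while its second probe set with a mean of 6.37 was at -0.09 there and called lower with shHDAC3#1 (-0.35).

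RNF168, the ubiquitin ligase that spreads the mark read by TP53BP1, gave the largest change of any member. It read 7.87 and 7.63 in shLuc, 6.23 and 6.36 with shHDAC3#1, 6.91 and 7.35 with shHDAC3#2, 6.88 and 6.67 with shDNMT1#1, and 5.18 and 5.25 with shDNMT1#2. The order from high to low was shLuc, shHDAC3#2, shDNMT1#1, shHDAC3#1 and shDNMT1#2, and arrays of shHDAC3#2 and shDNMT1#1 came close to each other (6.91 against 6.88). RNF168 changed by -1.46 ± 0.13 (adjusted p = 6.5e-08), -0.62 (0.003), -0.98 (4.3e-05) and -2.53 (2.2e-11), to 36.4%, 65.1%, 50.8% and 17.3% of control. A dim second RNF168 probe set, with a mean of 4.36, gave 0.04, -0.13, 0.06 and -0.09. RNF8, which acts before RNF168, read 6.41 and 6.70 in shLuc and 6.41 to 6.74 in the knockdown arrays. RAD18, the ligase of damage bypass, was at 0.13, 0.04, 0.20 and 0.26 with no call.

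**Figure D4:**
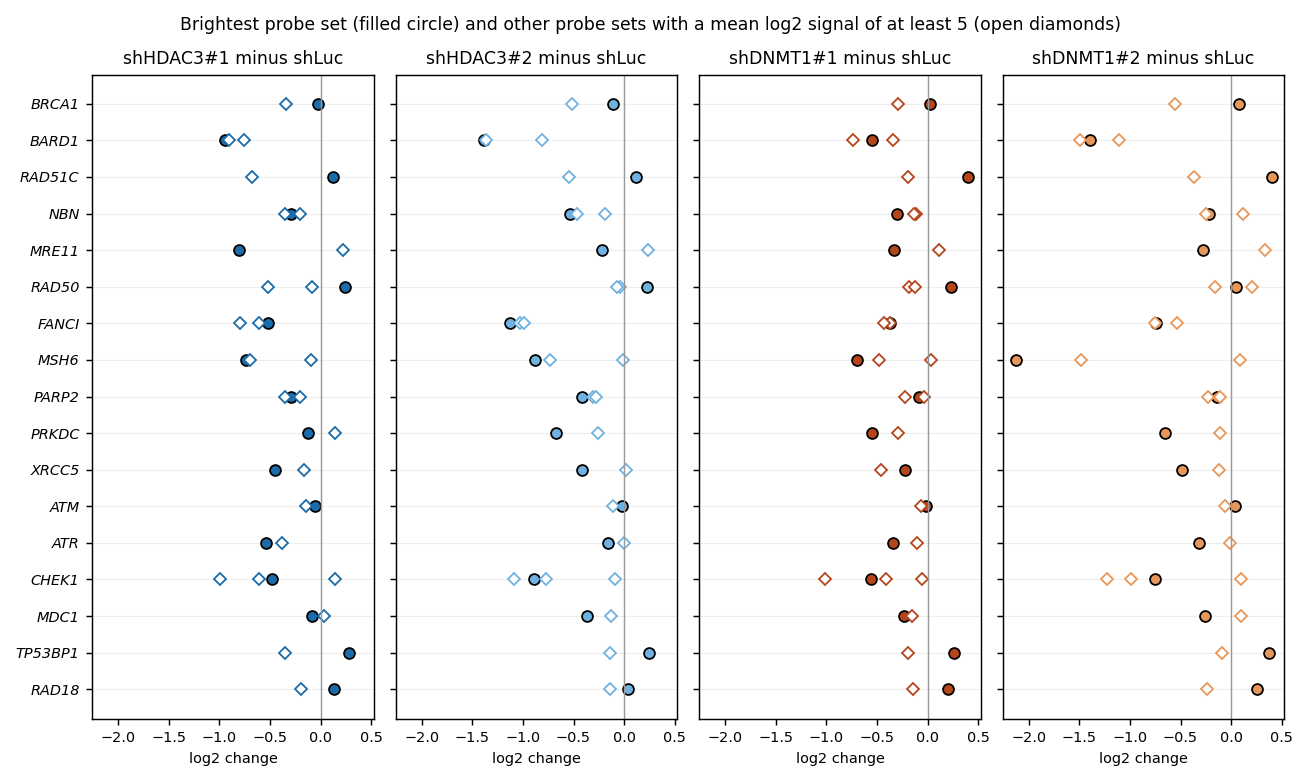
Log2 change against shLuc with each hairpin (panels) of the chosen probe set (filled circle) and of other probe sets of the same gene with a mean of at least 5 (open diamonds), for 17 repair genes. The RAD51C and BRCA1 probe sets disagree, and the CHEK1 probe set with a mean of 6.0 differs from the other CHEK1 probe sets. Those of MSH6 with means of 7.44 and 6.45 are both lower.

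Other probe sets put a limit on these counts. Of the 44 members, 26 had more than 1, and 25 other probe sets with a mean of at least 5 belonged to 17 members. Tested on their own over 41091 probe sets, 11, 10, 4 and 9 of these were called lower with shHDAC3#1, shHDAC3#2, shDNMT1#1 and shDNMT1#2, and none was called higher (an alternative chosen after seeing the data). At an unadjusted limma p under 0.05, 0, 0, 0 and 1 of them were higher. Of the dimmer probe sets left out by this cut, some were called higher, for ATM (0.47) and ATR (0.41) with shDNMT1#2 and XRCC5 (0.40) with shHDAC3#1. Others, of XRCC4, LIG4 and FANCB, were called lower with at least 1 hairpin. The shares over all 41091 probe sets are not given here, so these counts have no background of their own. Over all genes, each read by its brightest probe set, 16.6%, 9.54%, 6.81% and 15.2% were lower and 7.83%, 1.31%, 1.34% and 11.6% higher. Where the chosen probe set was lower and such another one existed (7, 8, 5 and 6 members), another was also lower for 4, 5, 3 and 4.

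The hairpins of 1 target did not give the same sizes. Between shHDAC3#2 and shHDAC3#1, 11 members were called, 5 lower and 6 higher with shHDAC3#2, which is 25% against 12.6% of all genes (3.75% lower and 8.85% higher). Between shDNMT1#2 and shDNMT1#1, 9 were called and all were lower with shDNMT1#2, against 12% of all genes (8.39% lower and 3.57% higher). The largest differences between HDAC3 hairpins were in FANCG (0.96, adjusted p = 2.6e-05), RNF168 (0.84, 0.00011) and APEX1 (0.69, 4.8e-05), each lower with shHDAC3#1. Between DNMT1 hairpins they were in RNF168 (-1.56, 4.4e-08), MSH6 (-1.43, 2e-08) and BARD1 (-0.84, 1.8e-05), each lower with shDNMT1#2.

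**Figure D5:**
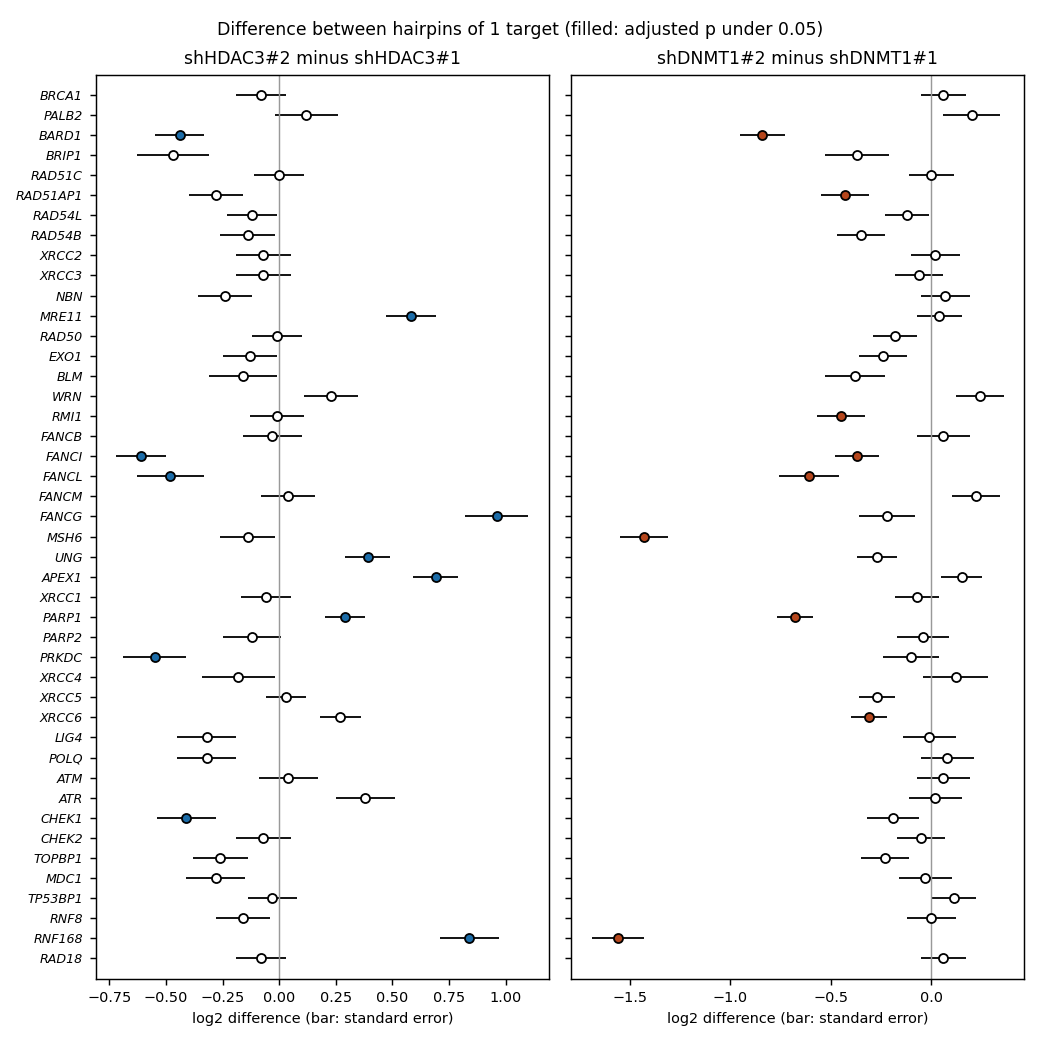
Log2 difference between the hairpins of a target, second minus first, for each of the 44 repair genes, with the SE as bars and called differences filled (limma, adjusted p under 0.05). RNF168 and MSH6 lie farthest from 0 in the DNMT1 panel (-1.56 and -1.43), and FANCG in the HDAC3 panel (0.96).

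With the 2 hairpins of a target averaged (n = 4 against 2), 22 members were lower and 1 higher after HDAC3 knockdown, against 19.2% of all genes called (15.3% lower and 3.96% higher). After DNMT1 knockdown 18 were lower and 3 higher, against 20.2% (13.5% lower and 6.66% higher). These averages leave out how hairpins of 1 target vary. With the hairpin as a random block (correlation of 0.351), only RMI1 (limma adjusted p = 0.031) and EXO1 (0.041) were called after HDAC3 knockdown. No member was called after DNMT1 knockdown. Few genes of any kind were called in this fit, 0.369% of all genes after HDAC3 knockdown and 0.157% after DNMT1 knockdown. An unadjusted limma p under 0.05 held for 17 lower and 1 higher members in the first and 15 lower and 2 higher in the second. The share of all genes at that unadjusted threshold is not given, so these counts cannot be set against it.

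The other genes of these pathways, 105 measured of 116, were more often lower than higher, as were all genes. With shHDAC3#1, shHDAC3#2, shDNMT1#1 and shDNMT1#2, 29, 25, 17 and 34 were lower (27.6%, 23.8%, 16.2% and 32.4%, against 16.6%, 9.54%, 6.81% and 15.2% of all genes) and 5, 1, 2 and 11 higher (all genes 7.83%, 1.31%, 1.34% and 11.6%). FEN1, which trims DNA flaps in replication and base excision, was at -0.51, -0.95, -0.43 and -0.77, all called. USP1, which removes ubiquitin from the Fanconi pair, was at -0.59, -0.74, -0.41 and -1.08, all called, and UBE2T, the conjugating enzyme that works with FANCL, at -0.23, -1.23, -0.71 and -1.07, called with all but shHDAC3#1. The recombination genes RMI2, a partner of RMI1, and EME1, a partner of the nuclease MUS81, were called lower with all 4 hairpins, at -0.46, -0.90, -0.52 and -0.95, and at -0.45, -0.84, -0.82 and -0.81.

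TIMELESS, which stabilises halted replication forks, was at -1.50, -0.64, -0.56 and -0.54 with all 4 called. RAD1 and RAD17, which belong to the clamp that signals to ATR and its loader, were lower with each hairpin, at -0.52, -0.44, -0.52 and -0.81, and at -0.44, -0.80, -0.51 and -0.56. The damage bypass genes POLK and HLTF also fell with each, at -0.57, -0.79, -0.67 and -0.89, and at -0.45, -0.69, -0.65 and -0.83. SHLD2, a shieldin subunit that limits resection, was at -1.44 with shHDAC3#1 and -0.75 with shDNMT1#2, both called.

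RECQL, a RecQ helicase, went in opposite directions. It read 7.03 and 7.16 in shLuc, 7.72 and 7.64 with shHDAC3#1, 7.19 and 7.46 with shHDAC3#2, 8.17 and 7.52 with shDNMT1#1, and 5.03 and 5.10 with shDNMT1#2. It rose by 0.58 (adjusted p = 0.007) with shHDAC3#1 and by 0.75 (0.0021) with shDNMT1#1, and changed by -2.03 (2.3e-09) with shDNMT1#2. ERCC1, of nucleotide excision repair, rose with 3 hairpins, by 0.37, 0.51 and 0.36 with shHDAC3#2, shDNMT1#1 and shDNMT1#2.

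Genes of DNA replication and mitosis fell in the same arrays. Of 21 measured S phase genes, 16, 21, 14 and 20 were lower with shHDAC3#1, shHDAC3#2, shDNMT1#1 and shDNMT1#2, against 16.6%, 9.54%, 6.81% and 15.2% of all genes. Their median changes were -0.45, -0.88, -0.41 and -0.82. Their mean level was 8.16 and 8.25 in shLuc, 7.69 to 7.78, 7.27 to 7.38, 7.66 to 7.83 and 7.35 to 7.36 in these groups. MCM6, a subunit of the replicative helicase, was at -0.70, -1.09, -0.80 and -1.20. Of 20 mitosis genes, 11, 19, 13 and 19 were lower, against the same shares of all genes, with medians of -0.41, -1.11, -0.48 and -1.18. In bulk RNA, fewer cells in a phase and less RNA per cell cannot be told apart, and the part of these genes in the repair changes was not tested. The second hairpin of each target was lower in 14 (HDAC3) and 11 (DNMT1) of the S phase genes by the test between hairpins. Over all genes, 3.75% and 8.39% were lower in these 2 tests.

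Of markers of other cell types, no earlier B cell, T cell or fibroblast gene was called with any hairpin. With shHDAC3#1, 1 of 4 monocyte and 1 of 4 epithelial genes were called higher, against 7.83% of all genes. With shDNMT1#2, 2 of 4 epithelial genes were called higher, against 11.6% of all genes, with a list median of 0.4. The mean level of the epithelial list was 5.25 to 5.28 in shLuc and 5.59 to 5.78 with shDNMT1#2, and its part in the repair changes was not tested. Plasma cell genes were called in both directions. Of 8 such genes, 3, 1, 5 and 5 were lower with shHDAC3#1, shHDAC3#2, shDNMT1#1 and shDNMT1#2, against 16.6%, 9.54%, 6.81% and 15.2% of all genes. With the same hairpins 1, 0, 0 and 2 were higher, against 7.83%, 1.31%, 1.34% and 11.6% of all genes. Median changes of the 8 genes were 0.14, -0.12, -0.56 and -0.61. SLAMF7 was at -1.33, -0.29, -0.52 and -1.02 and TNFRSF17 at 0.19, -0.62, -0.96 and -1.15, each called with 3 hairpins. CD38 was called higher with shDNMT1#2 (0.77), MZB1 was at -1.23, 0.10, -1.66 and 0.55, with all but the second called, and PRDM1 was higher with shHDAC3#1 (0.33) and lower with shDNMT1#1 (-0.60) and shDNMT1#2 (-0.86).

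Counts of calls also moved with the spread of the arrays and with 1 control array. With the SD of an array's values as a covariate, which separates shLuc from all knockdown arrays, the members called with shHDAC3#1, shHDAC3#2, shDNMT1#1 and shDNMT1#2 numbered 0, 6, 2 and 2, against 1.14%, 2.63%, 2.81% and 0.602% of all genes, and with shHDAC3#1 an unadjusted limma p under 0.05 held for 5 lower and 1 higher. BARD1 with shHDAC3#2 (-1.11, adjusted p = 0.00023), MSH6 with shDNMT1#2 (-1.38, 0.0096) and RNF168 with shDNMT1#1 (-0.65, 0.014) and shDNMT1#2 (-1.62, 0.01) were still called lower. The 6 calls with shHDAC3#2 include a gained one, APEX1, which was higher (0.47, adjusted p = 0.04). Without shLuc replicate 1, which leaves 1 control array, most of the 12 members lost the call with at least 1 hairpin. Calls over all genes also became fewer with each hairpin, so a loss of calls was not particular to the repair genes.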

How the data were processed

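RNA of 10 samples was measured on an Affymetrix 3' expression array. The authors deposited log2 signals, for which the submitters' processing notes name RMA (its version, and whether all arrays were run through it together, not given in the sources used here). RMA corrects background, quantile-normalizes arrays and summarises probe sets, so that dim genes can change less than their RNA. Of 54675 probe sets, the platform annotation names 1 gene for 41097, several for 1801 and none for 11777.

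Each of 19775 genes was read by its brightest single-gene probe set, with no filter on signal. The test was limma's (version 3.58.1, lmFit and eBayes with trend, under R 4.3.3), in 1 model of 5 groups with 5 residual degrees of freedom, two-sided, with Benjamini-Hochberg adjustment over all genes. The number of arrays limits the precision.

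Array values were given, in each role group, for up to 3 called members with the largest change (2 in groups of 3 or fewer), for the member with the smallest largest change, and for the 3 largest differences between hairpins of a target. BRCA1, RAD51C and MRE11 fall outside this rule and were chosen after their values were seen, because their probe sets disagree. Of other lists, up to 4 called genes were eligible. CD38, MZB1 and PRDM1 were named after their values were seen, to show plasma cell genes called in either direction. Members and lists were chosen with earlier results of these data known. Deviations of same-numbered arrays correlated at -0.3427 to 0.2657, with 2 of 10 pairs of groups over 0.1, so replicate numbers were not taken to pair samples. RefSeq promoter windows are from GRCh38.p14. Alternatives covered probe sets, scaling, the model and left-out arrays.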

Additional observations from a re-analysis of the deposited data

Results flagged for a closer look

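The tests between hairpins of 1 target called 20 differences among the repair genes (limma, adjusted p under 0.05 over all genes, n = 2 against 2). These are differences in response under 1 target, and their cause was not tested. Values are log2 differences, the second hairpin minus the first.

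Between the HDAC3 hairpins, shHDAC3#2 was higher in FANCG (0.96), RNF168 (0.84), APEX1 (0.69), MRE11 (0.58), UNG (0.39) and PARP1 (0.29). The arrays of shHDAC3#1, the lower group in these 6 genes, also had the raised ACTB 3' to 5' difference. The signal was lower with shHDAC3#2 in FANCI (-0.61), PRKDC (-0.55), FANCL (-0.48), BARD1 (-0.44) and CHEK1 (-0.41).

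Between the DNMT1 hairpins, shDNMT1#2 was lower in RNF168 (-1.56), MSH6 (-1.43), BARD1 (-0.84), PARP1 (-0.68), FANCL (-0.61), RMI1 (-0.45), RAD51AP1 (-0.43), FANCI (-0.37) and XRCC6 (-0.31).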

How the results depend on the processing

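Of 2946 values of named genes under alternatives, 2625 kept their side of the threshold, 272 lost the call, 32 gained one, and 17 changed sign where a value was called before or after. Among the 2625, 121 values called in neither fit also changed sign, 34 of them with the array SD as a covariate and 16 after a further quantile normalization. The cause of these changes was not tested. With the array SD as a covariate, 0, 6, 2 and 2 members were called with shHDAC3#1, shHDAC3#2, shDNMT1#1 and shDNMT1#2 (all genes 1.14%, 2.63%, 2.81% and 0.602%). There were 0 and 2 in the averages for HDAC3 and DNMT1 (all genes 0.576% and 0.602%), and 3 between the DNMT1 hairpins (all genes 3.39%). At an unadjusted limma p under 0.05 shHDAC3#1 had 5 lower and 1 higher members, and the HDAC3 average 9 lower. Shares of all genes are not given for the unadjusted counts of this paragraph. With the hairpin as a random block 2 and 0 members were called in these averages, against 0.369% and 0.157% of all genes (unadjusted 17 lower and 1 higher, and 15 lower and 2 higher members). With a gene's probe sets averaged 9 were called with shDNMT1#1 (all genes 5.47%) and 6 between HDAC3 hairpins (all genes 10.8%). Without probe sets that can cross-hybridize 7 of 34 measured members were called between HDAC3 hairpins (all genes 9.96%).

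Leaving out 1 array gave 16 to 24 members called with shHDAC3#1 (all genes 10.1% to 25.9%), 11 to 17 with shHDAC3#2 (5.1% to 10.4%), 5 to 18 with shDNMT1#1 (2.66% to 12.9%), 15 to 21 with shDNMT1#2 (11.1% to 26.6%), 15 to 23 and 14 to 24 for the HDAC3 and DNMT1 averages (7.13% to 20.3% and 6.9% to 24.7%), and 5 to 10 and 4 to 12 between their hairpins (8.27% to 10.3% and 7.17% to 11.4%). These shares of all genes are the lowest and highest over the same left-out arrays. They need not come from the fit with the lowest or highest member count. Without shLuc replicate 1 the counts were 11 (shHDAC3#2), 5 (shDNMT1#1) and 15 (HDAC3). Without shDNMT1#1 replicate 2 shDNMT1#1 had 7. Between HDAC3 hairpins 5 were called without shHDAC3#1 replicate 2. Between DNMT1 hairpins 4, 4 and 5 were called without shDNMT1#1 replicate 1, shDNMT1#2 replicate 1 and shDNMT1#2 replicate 2.

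Signs of values called in at least 1 of the fits changed without cross-hybridizing probe sets for XRCC5, whose remaining probe set has a mean of 2.74 (0.40 with shHDAC3#1, 0.14 with shHDAC3#2, 0.37 with shDNMT1#2, 0.27 and 0.20 in the HDAC3 and DNMT1 averages). After a further quantile normalization they changed for APEX1 (0.28) and XRCC6 (0.04) with shDNMT1#2 and XRCC6 in the HDAC3 average (0.01). With the array SD as a covariate they changed with shHDAC3#1 for BRIP1 (0.15), CHEK1 (0.22) and ATR (0.12), with shDNMT1#2 for PRKDC (0.13), XRCC6 (0.08) and CHEK1 (0.13), and in the averages for PRKDC (0.12, HDAC3) and ATR (0.19, HDAC3, and 0.24, DNMT1).

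With a replicate block, 20, 16, 13 and 21 members were called with shHDAC3#1, shHDAC3#2, shDNMT1#1 and shDNMT1#2 (all genes 22.2%, 10.1%, 7.16% and 24.3%). The averages had 22 and 20 (all genes 17.3% and 18.1%), and the tests between hairpins 9 and 8 (all genes 11.6% and 10.7%). All these member counts are within 1.5 times the counts without the block.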

Other observations

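Among other repair genes, PMS1, a mismatch repair gene, was lower with shHDAC3#1 (-1.06, limma adjusted p = 6.5e-06) and at -0.42, -0.43 and -0.31 with no call for the others. UBE2A, the ubiquitin enzyme that works with RAD18, was lower with shHDAC3#2 (-1.82, 1.9e-09) and shDNMT1#2 (-1.18, 2.6e-07) and at -0.30 and -0.38 with the first hairpin of each target. PARG, which removes ADP-ribose chains, was at -0.74, -0.46, -0.76 and -0.33, called with the first 3 hairpins. MBD4, a glycosylase that acts at methylated sites, was at -0.25, -0.56, -0.43 and -0.96, called with all but shHDAC3#1. POLI, a bypass polymerase, was lower with shHDAC3#1 (-1.07), shHDAC3#2 (-0.56) and shDNMT1#1 (-1.02) and at -0.38 with shDNMT1#2.

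RRM2, which supplies nucleotides for DNA synthesis, was at -0.22, -1.92, -0.10 and -1.92, called with the second hairpin of each target. CDK1, the mitotic kinase, was at -0.17, -1.45, -0.62 and -1.92, called with all but shHDAC3#1.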
